A study of Mus musculus with 8 samples.

Results

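A set of 10 genes that lie beside Mbd2 on mouse chromosome 18 are described here in the hippocampus of wild-type and Mbd2-/- mice. The 10 genes are Aldh7a1, Fbn2, Slc6a7, Spink10, Ccbe1, Tubb6, Rab27b, 4930503L19Rik, Dcc and Lipg, out of 19201 genes in the deposited table. They were picked by symbol because their expression differed between the genotypes and because they lie within about 15 Mb of Mbd2. Their difference between the genotypes is therefore given as a description, without a test. The labels call the wild-type group control and give it as C57BL/6, and they give the other group as Mbd2-/- on a C57BL/6 background, with mice aged 10-12 weeks in both. Each genotype has 4 libraries and each library pooled the hippocampi of 2 mice. A replicate is therefore a pool of animals. Littermates were bred from heterozygous parents, and the line had been made in another laboratory and reached this colony as embryos of heterozygous mice.

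A gene that has been inactivated in embryonic stem cells is bred onto another strain by repeated crossing, and the DNA on both sides of the inactivated gene tends to be inherited together with it. Genes in that flanking DNA can carry the sequence of the strain in which the allele was made, and wild-type littermates carry the sequence of the recipient strain at the same place. Every Mbd2-/- library holds both the inactivated gene and the DNA linked to it, so the loss of Mbd2 and the sequence of the flanking DNA cannot be told apart in these libraries. The table gives expression per gene and holds no sequence variants, and the strain origin of the flanking DNA was not tested. Mbd2 itself encodes a protein that binds methylated CpG sites and takes part in gene silencing.

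The libraries held from 8087750 to 23790825 reads on genes, recovered from the normalized counts. Mbd2 had normalized counts of 295, 363, 371 and 354 in the wild-type libraries and of 244, 240, 339 and 217 in the Mbd2-/- libraries. The targeted allele leaves the first exon expressed, and Mbd2-/- replicate 3 lay above wild-type replicate 1, so that the groups overlapped (log2 fold change -0.43, exact two-sided permutation p = 0.0571, where 0.0286 is the smallest possible with 4 libraries against 4). In the fit over all genes the adjusted p of Mbd2 was 0.0174 (limma), and it was above 0.05 when wild-type replicate 3 (0.0625) or Mbd2-/- replicate 1 (0.0542) or 2 (0.0579) was left out. Of 12 markers of hippocampal fields all 12 were detected, 2 were called higher and 3 lower, and their summed level in Mbd2-/- libraries was 98.2% of that in wild-type libraries. Markers of the choroid plexus and the thalamus, next to the hippocampus, moved with the genotype, while striatum markers went both ways. Of 9 tested striatum markers 2 were called higher and 2 lower. Their summed normalized count was 2371 to 2532 in wild-type and 2331 to 2572 in Mbd2-/- libraries. All 18 choroid plexus markers were called higher in Mbd2-/- libraries, with a summed normalized count of 24712 to 26426 in wild-type and of 47669 to 54033 in Mbd2-/- libraries. Of 16 thalamus markers 14 were called lower, with a summed normalized count of 13140 to 13361 in wild-type and of 10465 to 10664 in Mbd2-/- libraries, and none of these markers was at 0 in all libraries. Of 8 oligodendrocyte markers 6 were called higher, and their summed level in Mbd2-/- libraries was 122.7% of that in wild-type libraries. The part of these tissues in the results below was not tested, and in tissue RNA fewer cells of a type and less RNA per cell cannot be told apart.

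Of the 10 genes, 8 had lower and 2 had higher expression in Mbd2-/- hippocampi. Normalized counts are reads on a gene divided by a size factor of the library, and log2 fold changes were taken from log2(normalized count + 1), Mbd2-/- over wild-type. The median log2 fold change of the 10 genes was -0.62 and the median absolute log2 fold change was 0.81, beside 0.15 over the 14504 genes tested. All 10 had an adjusted p under 0.05 in limma, beside 22.0% of all tested genes (12.0% higher and 10.0% lower). Not all of the 10 were called when the dependence on transcript length was removed. The same held when Mbd2-/- replicate 1 or wild-type replicate 2 or 4 was left out. In 9 of the 10 genes the groups did not overlap, beside 23.6%, and 9 differed by at least 0.5 on the log2 scale, beside 4.99% of all tested genes and 3.02% that were also called. A difference of at least 1 was found in 4, beside 0.558% and 0.51%. These counts follow from how the genes were picked, and nothing is read from them. The 10 genes are spread over both sides of Mbd2. Aldh7a1, Fbn2, Slc6a7, Spink10, Ccbe1, Tubb6, Rab27b and 4930503L19Rik lie on the side of lower coordinates, and Dcc and Lipg on the side of higher coordinates. Mbd2 spans 70727843 to 70785785 on chromosome 18 of mm9, and the distances below run between the midpoints of the genes.

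**Figure D1:**
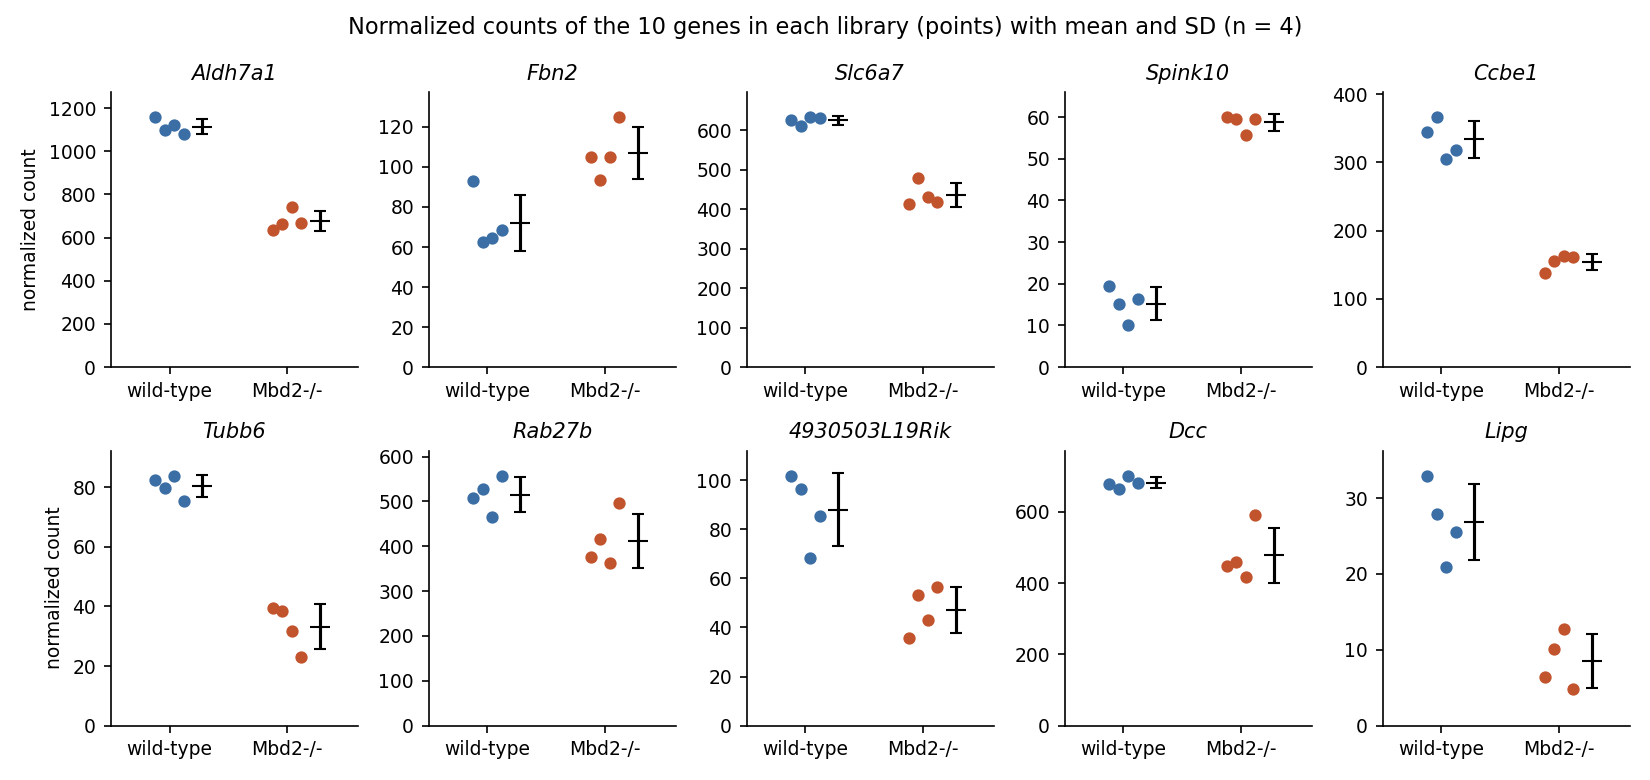
Normalized counts of the 10 genes in order along chromosome 18, with 1 point for each library, 4 wild-type (blue) and 4 Mbd2-/- (orange), and the mean and SD as a black bar. The groups do not overlap in 9 genes, and in Rab27b the highest Mbd2-/- library (496) lies above the lowest wild-type library (465).

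The enzymes, the transporter and the putative protease inhibitor are described first. Aldh7a1, also named antiquitin, encodes an aldehyde dehydrogenase of lysine breakdown, and its loss in people causes a form of epilepsy that responds to pyridoxine. The gene spans 56669341 to 56732605 on the minus strand, 14.1 Mb from Mbd2, which makes it the farthest of the 10. Normalized counts were 1159, 1098, 1121 and 1078 in the wild-type libraries and 637, 662, 743 and 669 in the Mbd2-/- libraries. The 4 Mbd2-/- libraries lay close together and far below every wild-type library. The mean was 1114 ± 34.7 (SD, n = 4) in wild-type and 678 ± 45.4 (SD, n = 4) in Mbd2-/- hippocampi, that is 60.8% of the wild-type level (log2 fold change -0.72, standard error 0.06). Phax is annotated across the start of Aldh7a1 on the other strand, and whether the reads were counted by strand is not given in the sources used here. Phax had a log2 fold change of 0.14 and was not called.

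Slc6a7 encodes a transporter of proline that is found in the endings of glutamatergic neurons. It lies 9.59 Mb from Mbd2, from 61155035 to 61173853 on the minus strand. The wild-type and Mbd2-/- libraries are given in order of replicate. Slc6a7 had normalized counts of 625, 610, 634 and 630 in the wild-type and 414, 480, 432 and 419 in the Mbd2-/- libraries. It had the smallest spread of the 10 genes among the wild-type libraries, with a coefficient of variation of 1.66%, and Mbd2-/- replicate 2 was the Mbd2-/- library nearest to them. The Mbd2-/- mean was 69.8% of the wild-type mean (log2 fold change -0.52, standard error 0.06).

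Lipg encodes endothelial lipase, a secreted enzyme that cleaves phospholipids of high-density lipoprotein. It lies 4.35 Mb from Mbd2, from 75098976 to 75120917 on the minus strand. Lipg had normalized counts of 33.0, 27.8, 21.0 and 25.5 in the wild-type and 6.38, 10.1, 12.8 and 4.80 in the Mbd2-/- libraries. All 4 Mbd2-/- libraries were low, and they differed among themselves with a coefficient of variation of 42.2%. The Mbd2-/- mean was 31.7% of the wild-type mean, the lowest share of the 10 genes (log2 fold change -1.61, standard error 0.29). These levels rest on few reads. The 4 Mbd2-/- libraries held 29 reads on Lipg in all, with a 95% Poisson interval of 19.4 to 41.6 that covers counting error only, and single libraries held 5 to 11. Of 8 endothelial markers 2 were called higher, and their summed normalized count was 2263 to 2364 in wild-type and 2404 to 2570 in Mbd2-/- libraries.

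Spink10 belongs to a family of small secreted proteins with Kazal domains, many of which inhibit serine proteases. It was the gene with the largest difference of the 10 and the fifth largest absolute log2 fold change of all genes tested. The annotated gene runs from 62708565 to 62821020 on the plus strand, 7.99 Mb from Mbd2. It had normalized counts of 19.5, 15.05, 10.0 and 16.5 in the wild-type and 60.0, 59.4, 55.8 and 59.6 in the Mbd2-/- libraries. The Mbd2-/- libraries were nearly equal (58.7 ± 1.96, SD, n = 4), whereas the wild-type libraries were low and spread from 11 to 31 reads. The Mbd2-/- mean was 3.85 times the wild-type mean (log2 fold change 1.91, standard error 0.20). In wild-type libraries Spink10 stood at 9.72 normalized counts per kilobase of exon, above only 9.97% of the tested genes. Spink7 and Spink13 are annotated within its span on the other strand, and Spink13 had 0.133 ± 0.266 normalized counts in wild-type and an Mbd2-/- level of 1.58 ± 1.099 (SD, n = 4).

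Fbn2 and Ccbe1 encode secreted proteins of the extracellular matrix. Fbn2 encodes fibrillin-2, a building block of elastic microfibrils, and is the other gene that was higher in Mbd2-/- hippocampi. It lies 12.5 Mb from Mbd2, from 58168277 to 58369580 on the minus strand. Fbn2 had normalized counts of 92.9, 62.4, 64.7 and 68.5 in the wild-type and 105, 93.3, 105 and 125 in the Mbd2-/- libraries. The groups did not overlap, but wild-type replicate 1 and Mbd2-/- replicate 2 lay next to each other. The Mbd2-/- mean was 1.48 times the wild-type mean (log2 fold change 0.57, standard error 0.14).

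Ccbe1 encodes a secreted protein that helps to process Vegfc, the growth factor of lymphatic vessels. It lies 4.42 Mb from Mbd2, from 66204956 to 66462393 on the minus strand. Ccbe1 had normalized counts of 345, 366, 305 and 318 in the wild-type and 138, 155, 163 and 161 in the Mbd2-/- libraries. Both groups were tight and far apart, and the Mbd2-/- mean was 46.3% of the wild-type mean (log2 fold change -1.11, standard error 0.09). Over the 8 libraries the tested gene most like Ccbe1 was Slc17a6 (Pearson's r of 0.994), a vesicular glutamate transporter that is a marker of the thalamus. Slc17a6 had a log2 fold change of -0.66, the 16 thalamus markers had a median of -0.48, and Ccbe1 had -1.11. The part of thalamic tissue in the level of Ccbe1 was not tested.

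The remaining genes are Tubb6 of the cytoskeleton, Rab27b of vesicles, Dcc of growing axons and 4930503L19Rik. Tubb6 encodes a beta-tubulin, a subunit of microtubules, and lies 3.20 Mb from Mbd2, from 67550371 to 67562402 on the plus strand. Tubb6 had normalized counts of 82.4, 79.8, 83.9 and 75.4 in the wild-type and 39.6, 38.4, 31.9 and 23.1 in the Mbd2-/- libraries. Mbd2-/- replicate 4 was the lowest and the wild-type libraries were almost equal. The Mbd2-/- mean was 41.4% of the wild-type mean (log2 fold change -1.28, standard error 0.17). The beta-tubulin genes are similar in sequence, and how the authors assigned reads that match more than 1 of them is not given in the sources used here.

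Rab27b encodes a small GTPase that brings secretory vesicles to the plasma membrane. It lies 0.537 Mb from Mbd2, from 70138785 to 70301259 on the minus strand. Rab27b had normalized counts of 507, 528, 465 and 558 in the wild-type and 375, 415, 362 and 496 in the Mbd2-/- libraries. Rab27b was the only one of the 10 genes whose groups overlapped, because Mbd2-/- replicate 4 lay above wild-type replicate 3. It also had the smallest difference, with a Mbd2-/- mean at 80.1% of the wild-type mean (log2 fold change -0.33, standard error 0.09).

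4930503L19Rik is the nearest of the 10 genes to Mbd2, at 0.134 Mb between midpoints and 95.7 kb between the ends of the genes, from 70612794 to 70632134 on the minus strand. Its normalized counts were 102, 96.3, 68.4 and 85.5 in the wild-type and 35.8, 53.0, 43.0 and 56.7 in the Mbd2-/- libraries. The spread was wide in both groups, and the Mbd2-/- mean was 53.5% of the wild-type mean (log2 fold change -0.89, standard error 0.16). Stard6 is annotated on the other strand at the same place, and its normalized counts of 8.19 ± 4.19 in wild-type and 6.43 ± 2.91 in Mbd2-/- hippocampi (SD, n = 4) are low.

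Dcc encodes a receptor for netrin-1 that steers growing axons. It is the longest of the genes, with 1092 kb between 71418392 and 72510723 on the minus strand, and its midpoint lies 1.21 Mb from that of Mbd2. Its normalized counts were 677, 664, 702 and 681 in the wild-type and 448, 459, 416 and 590 in the Mbd2-/- libraries. The wild-type libraries were almost equal, and Mbd2-/- replicate 4 lay between them and the other Mbd2-/- libraries. The Mbd2-/- mean was 70.2% of the wild-type mean (log2 fold change -0.52, standard error 0.09).

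The genes were compared per length within the wild-type libraries, on the scale of normalized counts per kilobase of annotated exon. Aldh7a1 stood highest with 215 and Slc6a7 followed with 187, and Dcc came next with 84.4. Rab27b (48.2), Tubb6 (45.7), 4930503L19Rik (38.4) and Ccbe1 (35.1) formed a middle group, above 29.2% to 35.9% of the tested genes. Spink10 (9.72), Lipg (7.08) and Fbn2 (6.88) stood above 6.43% to 9.97% of them.

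The 4 Mbd2-/- libraries were compared with the wild-type mean one by one. Mbd2-/- replicate 4 stands apart from the others in the whole series, since the dependence of its differences on transcript length was weak (Spearman's rho of -0.10 across genes, against -0.48, -0.43 and -0.48 in replicates 1 to 3). This library lay nearest to the wild-type mean in 3 of the 10 genes and farthest from it in 3 others. In Dcc its difference was -0.21 and in Rab27b -0.05 on the log2 scale, where the other Mbd2-/- libraries reached -0.57 to -0.71 in Dcc and -0.31 to -0.50 in Rab27b. In Lipg its difference was -2.24 and in Tubb6 -1.76, the largest of the 4 libraries in both genes. Without Mbd2-/- replicate 4 the log2 fold change of Dcc was -0.63 and that of Rab27b -0.42.

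**Figure D2:**
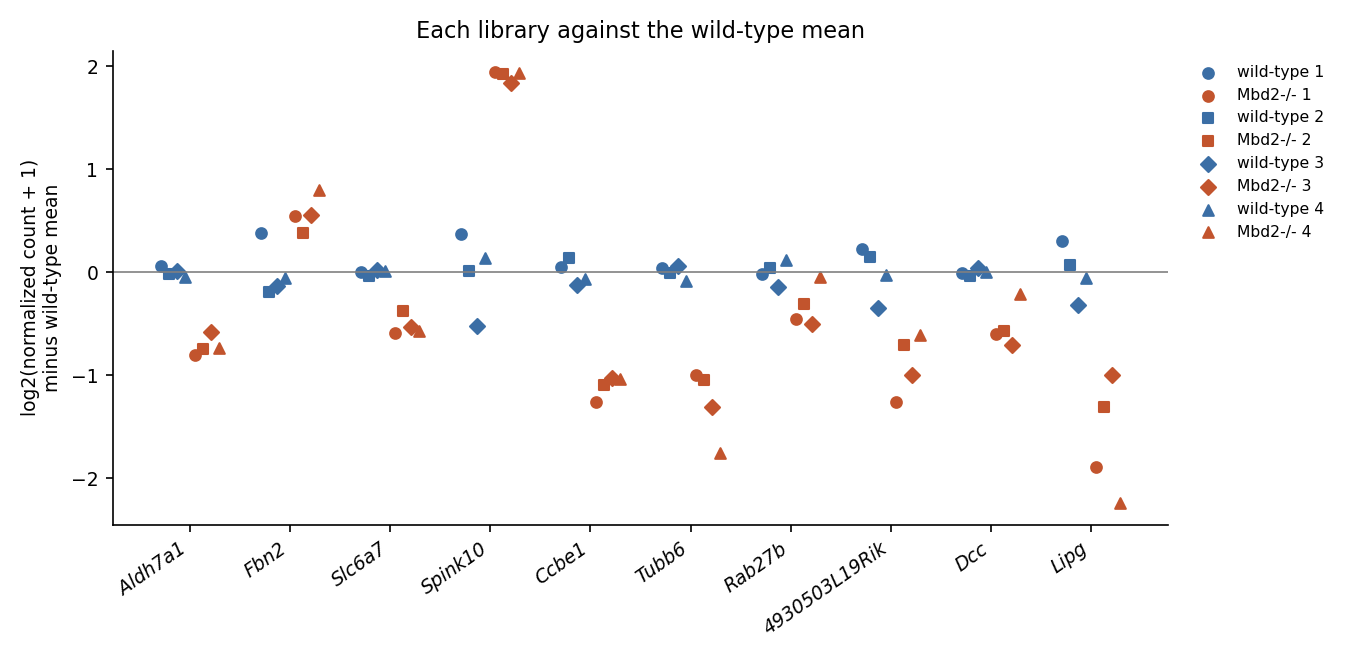
Difference of each library from the wild-type mean on log2(normalized count + 1), for the 10 genes in order along chromosome 18, with 1 symbol shape for each replicate number, wild-type in blue and Mbd2-/- in orange. All Mbd2-/- symbols lie on 1 side of 0 in each gene, which the choice of these genes largely fixes, and the triangle of Mbd2-/- replicate 4 lies near 0 in Rab27b (-0.05) and lowest in Lipg (-2.24).

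Transcript length was examined because the differences of Mbd2-/- replicates 1 to 3 depended on it. The longest annotated transcript had a median of 3959 bases in the 10 genes and of 3187 bases in the tested genes. When the dependence on length was removed from each library, all 10 genes kept their sign, but not all of them were called. Within 15 Mb of Mbd2, 33 of 139 tested genes were then called with the 10 and 24 of 129 without them. The log2 fold change moved by 0.01 to 0.23, most in Spink10, from 1.91 to 1.68, and it was -0.21 in Rab27b, 0.72 in Fbn2 and -1.41 in Tubb6.

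Whether other genes near Mbd2 differed as well was asked of all tested genes on the chromosome. Within 15 Mb of Mbd2 lie 129 tested genes besides Mbd2 and the 10, and 26 of them were called (limma, adjusted p under 0.05), 13 higher and 13 lower. That is 20.2%, beside 22.0% of all tested genes and 15.5% of the 239 genes on the rest of chromosome 18. The median log2 fold change of the 129 genes was -0.04. Their median absolute log2 fold change was 0.13, and it was also 0.13 with the 10 genes included. On the rest of the chromosome, where no genes were left out, it was 0.13 as well. With the 10 genes included, which is every tested gene in this stretch other than Mbd2, 36 of 139 were called (25.9%). Leaving the 10 out removes called genes and so lowers the share, and 20.2% cannot be read against 22.0% as the share of an unpicked set. Which share was higher also depended on the setting. With the 10 genes the share within 15 Mb was above that of all tested genes in 18 of 19 alternatives, and without Mbd2-/- replicate 4 it was 34.5% against 35.5%. Without the 10 genes it was above that of all tested genes in 5 of the 19, among them the removal of the length trend (18.6% against 14.9%). Both counts include the fit without a filter on low counts. There the stretch kept its 129 genes (16.3% called) but the share of all was taken over 19201 genes (15.1%), so the sets are unlike. The count of 26 was 17 without wild-type replicate 3 or 4, where the share of all tested genes was 14.3% and 14.7%.

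Differences of at least 0.5 on the log2 scale were found in 12 of the 139 genes within 15 Mb when the 10 were included (8.63%), beside 4.99% of all tested genes. Without the 10 they were found in 3 of 129 genes (2.33%) and on the rest of chromosome 18 in 5 of 239 (2.09%). Of the 12 genes, 9 belong to the 10 picked genes, all but Rab27b, so that leaving the 10 out lowers the share. The 2.33% therefore cannot be read against 2.09% as the share of an unpicked set. Chromosome 18 as a whole, with the 10 genes and Mbd2, ranked 19th of 20 chromosomes by the share of genes called and 12th by the share with a difference of at least 0.5.

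In bins of 5 Mb with the 10 genes included, 8 of 18 genes were called from Mbd2 to 5 Mb on the side of higher coordinates and 8 of 30 on the other side. Without the 10 genes these counts were 6 of 16 and 4 of 26. From 5 to 10 Mb the counts were 3 of 23 on the side of higher coordinates, where none of the 10 lies, and on the other side 11 of 36 with the 10 genes and 9 of 34 without them. From 10 to 15 Mb they were 3 of 14, and on the other side 3 of 18 with and 1 of 16 without the 10 genes. The bin up to 5 Mb on the side of lower coordinates was above the 22.0% of all tested genes with the 10 genes (26.7%) and below it without them (15.4%). These bins hold few genes, and their shares were not tested against each other.

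**Figure D3:**
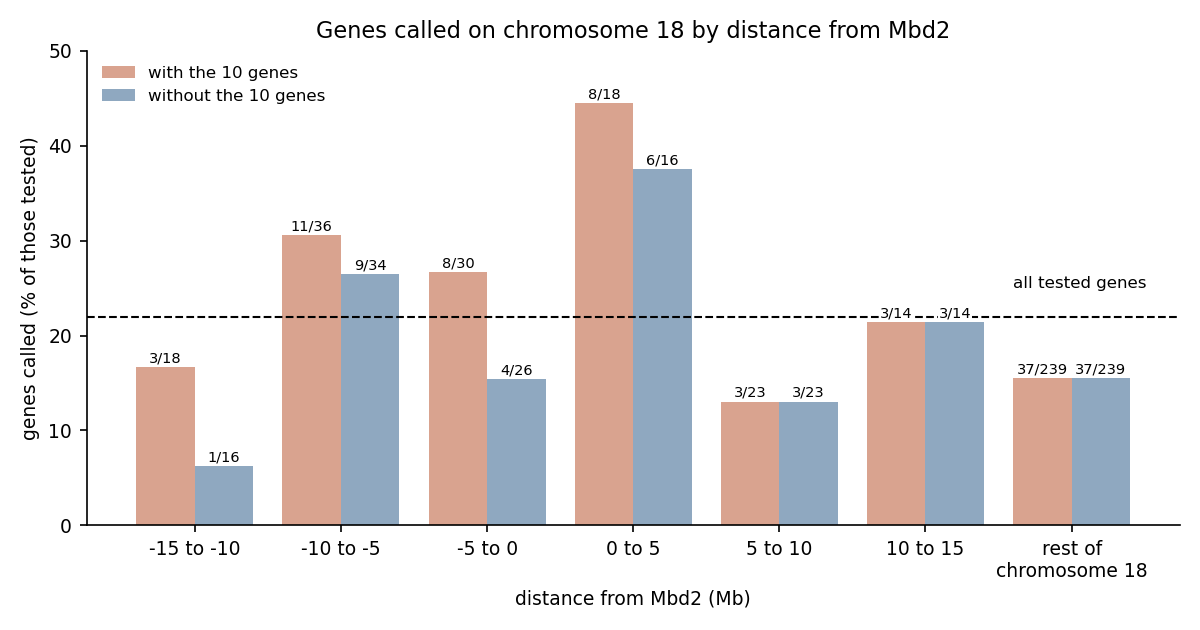
Percent of tested genes on chromosome 18 that were called (limma, adjusted p under 0.05) by distance from Mbd2, in bins of 5 Mb with the rest of the chromosome as the last pair of bars, with the 10 genes (red) and without them (blue), Mbd2 left out of both, and the number called of those tested above each bar. The dashed line marks 22.0%, the share over all 14504 tested genes, and the bars run from 3 of 23 to 8 of 18 with the 10 genes and from 1 of 16 to 6 of 16 without them.

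Among the called genes within 15 Mb, with Mbd2 and the 10 left out, the largest differences were in Atp8b1, a phospholipid flippase, in Rpl17, a protein of the large ribosomal subunit, in Cyb5a, which encodes cytochrome b5, in Chmp1b, of the membrane-remodelling ESCRT machinery, and in Mbp, the myelin basic protein. Atp8b1 fell from 37.8 ± 6.58 to 24.6 ± 8.29 normalized counts (SD, n = 4, groups overlapping, log2 fold change -0.64, adjusted p = 0.0478, limma). The log2 fold change of Atp8b1 was -0.57 to -0.54 with the count-based tools and -0.53 with the length trend removed, and it was not called there (adjusted p from 0.0779 to 0.119, and 0.108). It was also not called with the replicate block (0.0538), without a filter on low counts (0.0599) and in 6 of the 8 fits that each left out a library. The other 4 were higher, with log2 fold changes of 0.50 in Rpl17, 0.46 in Cyb5a, 0.42 in Chmp1b and 0.41 in Mbp (adjusted p from 2.82e-05 to 0.00887, limma), and their groups did not overlap. With the length trend removed the log2 fold change was 0.20 in Rpl17 and 0.27 in Cyb5a, and both were still called (adjusted p = 0.0124 and 0.0213, limma). Mbp belongs to the oligodendrocyte markers, of which 6 of 8 were called higher.

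Rab27b, with the smallest difference of the 10 genes, has an absolute log2 fold change of 0.33. In the same 15 Mb, 6 called genes other than Mbd2 and the 10 differed by at least as much, the 5 above and Zfp532 (-0.36). Piezo2, with -0.86, had the largest difference of the genes outside the 10 and was not called (adjusted p = 0.100, limma). Zfp532 and Piezo2 were chosen after their values were seen.

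**Figure D4:**
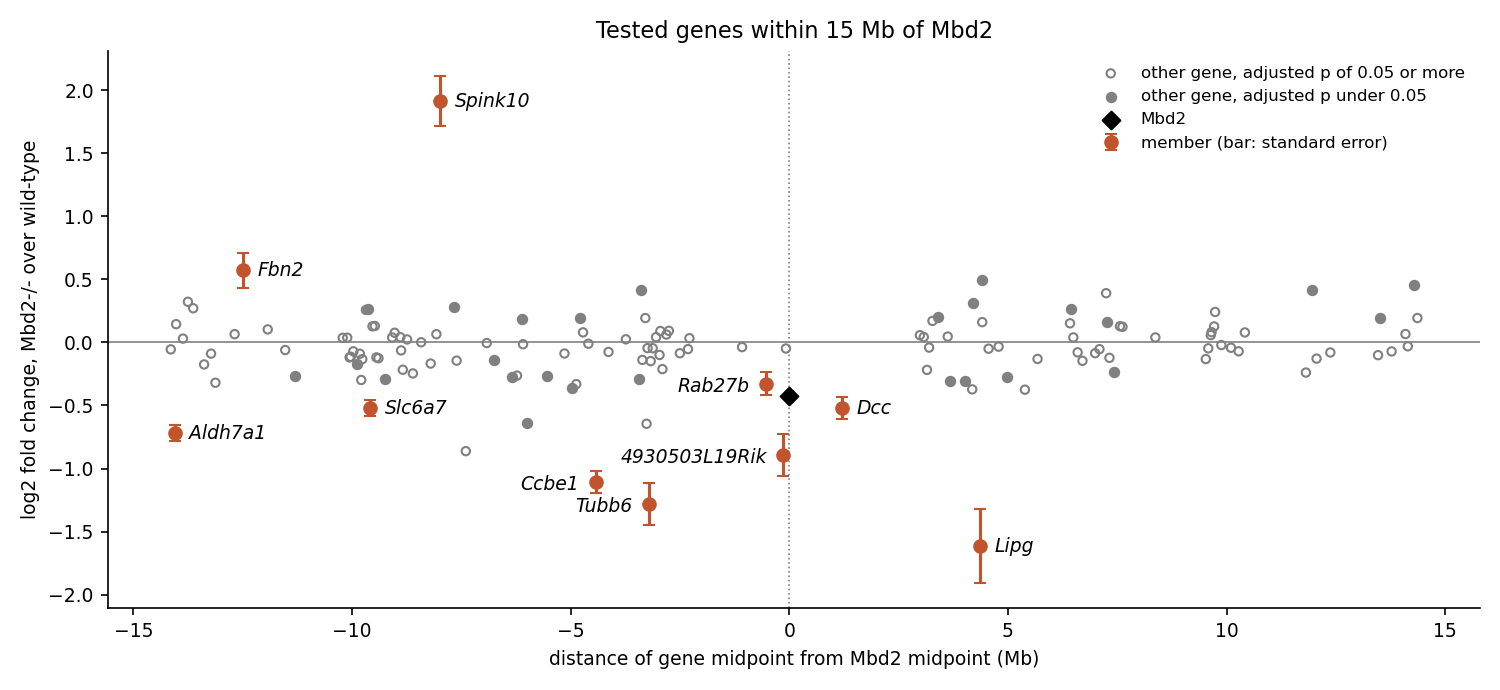
Log2 fold change of all tested genes within 15 Mb of Mbd2 against the distance of their midpoint from that of Mbd2, in Mb. The 10 genes are in orange with their standard errors, Mbd2 is the black diamond, and the other genes are grey, filled where called, and lie mostly within 0.5 of 0. The 10, which were picked for their change, range from -1.61 in Lipg to 1.91 in Spink10.

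The nearest tested gene on each side of each of the 10 was examined next, chosen by position alone. Rab27b, 4930503L19Rik and Mbd2 were left out because they belong to the 10 or are the targeted gene. All of them were called lower (log2 fold changes -0.33, -0.89 and -0.43), so leaving them out removes lower calls. After that 17 neighbours remained. Their median log2 fold change was 0.07 and their range was -0.15 to 0.50. The 10 genes ranged from -1.61 to 1.91, which follows from how they were picked, so nothing is read from the contrast of these ranges. In limma 4 neighbours were called higher and 0 lower, and at an unadjusted p under 0.05 there was 1 lower neighbour. DESeq2, edgeR and limma-voom each called 4 higher and 0 lower as well, and 1 was called lower without Mbd2-/- replicate 3 or 4. Of all tested genes 12.0% were called higher, and 17 neighbours are too few to set a share against that figure.

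The called neighbours lie beside Slc6a7, Spink10 and Lipg. Camk2a, the alpha subunit of the calcium/calmodulin-dependent kinase of synapses, lies 7.23 kb from Slc6a7 and was higher, with a rise from 68037 ± 941 to 81908 ± 1449 normalized counts (SD, n = 4, log2 fold change 0.27, adjusted p = 1.38e-04, limma). Slc6a7 itself was lower. On either side of Lipg, which was lower, Acaa2 of mitochondrial fatty acid oxidation (log2 fold change 0.31, adjusted p = 0.00940, limma) and Rpl17 (0.50, adjusted p = 2.12e-04, limma) were both higher. The Acaa2 call was lost with the length trend removed (adjusted p = 0.169, limma). Apcdd1, an inhibitor of Wnt signalling, lies 261 kb from Spink10 and had a log2 fold change of 0.28 (adjusted p = 0.0122, limma), against 1.91 in Spink10. On the other side of Spink10, 0.168 kb away, Fbxo38 was at 0.07 and was not called. Around 4930503L19Rik, the DNA polymerase gene Poli was at -0.05 and was not called, and beyond Dcc the next tested gene, Mex3c, was at 0.06 and was not called.

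Relatives and partners of the 10 genes elsewhere in the genome were taken from lists by name, 89 genes for all members except 4930503L19Rik. Of these, 69 were expressed above the minimum and tested, and 18 were called, 8 higher and 10 lower. That is 26.1%, beside 22.0% of all tested genes. None of the 69 lies on chromosome 18. Their median log2 fold change was -0.03 and their median absolute log2 fold change was 0.17, beside 0.15 over all tested genes. The median absolute value of the 10 genes was 0.81, which follows from how they were picked. The count of 18 was 11 without wild-type replicate 3.

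Of 12 tested aldehyde dehydrogenases and enzymes of lysine breakdown, 4 were called higher, beside 12.0% of all tested genes, and 8 were not called. None was called lower, which held also at an unadjusted p under 0.05 or in DESeq2, edgeR or limma-voom. Aass, which starts the breakdown of lysine, had a log2 fold change of 0.37 (adjusted p = 0.0200, limma), Aldh2 had 0.31 (0.00455) and Aldh1l1, an astrocyte enzyme of folate metabolism, had 0.26 (0.00340). Aass was not called without wild-type replicate 1 (adjusted p = 0.0542), 3 (0.0644) or 4 (0.0503).

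Of the 10 tested transporters of the Slc6 family, 3 were called lower and 0 higher, the direction of Slc6a7, and none was higher at an unadjusted p under 0.05 or in DESeq2, edgeR or limma-voom. Of all tested genes 10.0% were called lower, and 10 transporters are too few to set a share against that figure. Slc6a17, a vesicular transporter of neutral amino acids, was at -0.31 (adjusted p = 4.10e-04, limma), the glycine transporter Slc6a9 at -0.24 (0.00934) and the taurine transporter Slc6a6 at -0.19 (0.0126). With the length trend removed Slc6a17 was at -0.20 and still called (adjusted p = 0.0126, limma), and Slc6a6 was at -0.09 and not called (0.199).

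Partners of Dcc were lower in part, beside 10.0% of all tested genes that were called lower. Of 9 tested, 4 were called lower, the netrin receptors Unc5a (-0.20, adjusted p = 0.0287, limma), Unc5b (-0.21, 0.0441) and Unc5c (-0.25, 0.0324), and the adhesion molecule Dscam. None was called higher in limma, DESeq2, edgeR or limma-voom, 1 was higher at an unadjusted p under 0.05, and 1 was called higher without wild-type replicate 3. With the length trend removed 0 of the 4 kept the call, and without wild-type replicate 3 or 4 or Mbd2-/- replicate 2 none was called lower. Without wild-type replicate 1 or Mbd2-/- replicate 1 the number called lower was 1, without wild-type replicate 2 it was 2, and without Mbd2-/- replicate 4 it was 6. Netrin-1 itself, Ntn1, had a log2 fold change of -0.20 and was not called.

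Of 13 tested relatives and effectors of Rab27b, 2 were called higher and 2 lower. Rab27a, its closest relative, was at 0.01 and was not called. Rab3b, a GTPase of synaptic vesicles, was lower (log2 fold change -0.65, adjusted p = 3.05e-04, limma), and the effectors Sytl5 (0.32, adjusted p = 0.0306) and Sytl2 (0.31, 0.00230) were higher. Sytl5 lost the call when the length trend was removed (adjusted p = 0.111, limma) and when wild-type replicate 1, 3 or 4 or Mbd2-/- replicate 1 or 2 was left out (0.0532 to 0.0974).

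Of 6 tested beta-tubulins, Tubb2b was called higher (0.31, adjusted p = 0.00168, limma) and the other 5 were not, ranging from -0.10 in Tubb3 to 0.10 in Tubb4b on the log2 scale. Tubb2b was at 0.20 with the length trend removed (adjusted p = 0.00531, limma). Of 7 tested genes of microfibrils and elastic fibres, only Eln, the elastin gene, was called, and it was lower (-0.56, adjusted p = 0.00597, limma), while Fbn1 was at 0.08. Of 5 tested partners of Ccbe1 none was called by limma, DESeq2, edgeR or limma-voom, with 1 at an unadjusted p under 0.05, and Vegfc was at 0.26. Without Mbd2-/- replicate 1 or without a filter on low counts, 1 of the partners was called. Of 6 tested relatives of Lipg none was called by these 4 tools either, with 1 at an unadjusted p under 0.05 and 1 called without Mbd2-/- replicate 4, and lipoprotein lipase, Lpl, was at -0.06. Only 1 relative of Spink10 was above the minimum count, Spink8, a gene of hippocampal neurons, with 0.31 (adjusted p = 0.0179, limma) and with 0.01 after the length trend was removed (0.974). Spink8 was also not called without wild-type replicate 1 (0.0605) or 3 (0.0543) or Mbd2-/- replicate 1 (0.0648, adjusted p, limma).

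**Figure D5:**
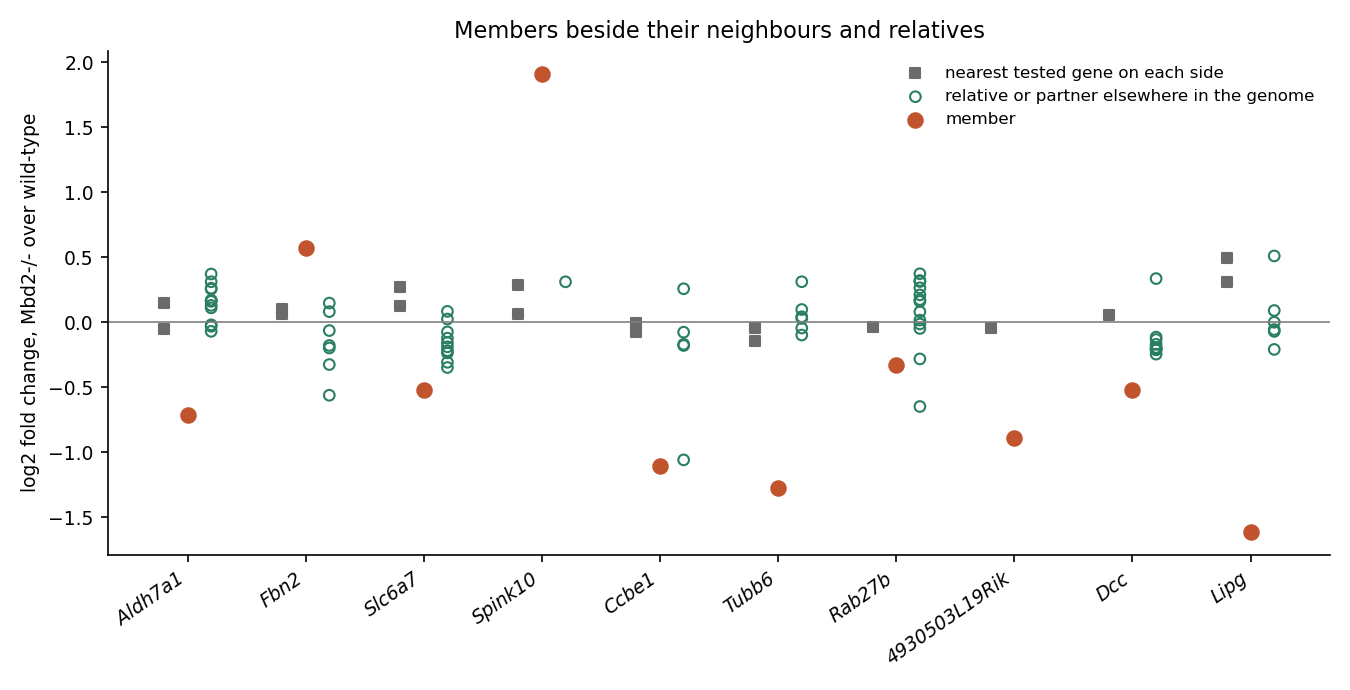
Log2 fold change of each of the 10 genes (orange), of the nearest tested gene on each side (grey squares, without Mbd2 and the 10 themselves) and of its tested relatives and partners (green circles). The neighbours range from -0.15 to 0.50 and the relatives from -1.06 to 0.51, the lowest being Adamts14, which was not called. The 10, which were picked for their change, range from -1.61 to 1.91.

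The CpG content of the sequence around each annotated start, from 250 bases before to 50 bases after it, was counted on mm9 because Mbd2 binds methylated CpG. The 10 genes held from 3 CpG sites in Ccbe1 and 6 in Rab27b to 43 in Aldh7a1, with a median of 23.5, beside a median of 19 and an interquartile range of 10 to 27 over the 14183 tested genes with such a sequence. All 10 held at least 1 site, as did 99.3% of the tested genes. Among the 8 genes that were lower are both the poorest and the richest start, and the 2 that were higher, Spink10 and Fbn2, held 27 and 30.

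For each of the 10 genes the tested gene with the most similar profile was sought, by Pearson's r over the 8 libraries. The best matches were Col4a2 for Aldh7a1, Cybrd1 for Fbn2, Tbc1d30 for Slc6a7, Car2 for Spink10, Slc17a6 for Ccbe1, Sez6l2 for Tubb6, Slc2a13 for Rab27b, Spata13 for 4930503L19Rik, Aak1 for Dcc and Eln for Lipg, with r from 0.969 to 0.996. None of these 10 genes lies on chromosome 18. Among the 100 most similar genes of each, the number on chromosome 18 was 0 to 5, in all 24 of 1000 places or 2.40%, beside 2.61% of the tested genes. These values describe 8 libraries that share the contrast of genotype.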

How the data were processed

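RNA-seq of hippocampus from 4 wild-type and 4 Mbd2-/- libraries was analysed. The authors removed duplicated reads, aligned them to mm9 with STAR and used DESeq2, and versions and the read counter are not given in the sources used here. The values that the authors deposited are a signal per gene and library, namely normalized counts scaled by size factors. The authors' own comparison (fold changes, p-values) in the same table was not used. Reads were recovered by dividing by the smallest value above 0, and 100.0% of values were whole within 0.01 of a read, at depths of 8087750 to 23790825. Counting intervals cover counting error only.

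Genes whose normalized count averaged 10 or more were compared on log2(normalized count + 1) with limma 3.58.1 (R 4.3.3, trend, robust), Benjamini-Hochberg adjusted over 14504 genes and called under 0.05. The test was checked on simulated data. DESeq2 1.42.0, edgeR 4.0.16 and limma-voom on recovered reads were among 19 alternatives. Coordinates are from GENCODE vM1 on NCBIM37 (mm9), matched for 94.3% of symbols. P-values measure the spread between pools.

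The members and lists were chosen with earlier results of these data known. Genes were named by rule: the 10, Mbd2, called neighbours, the 5 largest called differences within 15 Mb, at most 3 called relatives per list, and the most similar gene of each. Other genes named, such as relatives that were not called, were chosen after their values were seen.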

Additional observations from a re-analysis of the deposited data

Results flagged for a closer look

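In 68 groups of 4 libraries, formed by the 2 genotypes of 34 genes, 3 had a library far from the others by Dixon's criterion, which chance alone flags in about 1 of 20 groups. Spink10 had 55.8 normalized counts in Mbd2-/- replicate 3, below 59.4 to 60.0 in the other Mbd2-/- libraries. Sytl2 had 389 in wild-type replicate 4, below 418 to 420 in the other wild-type libraries, and Tubb2b had 1976 in Mbd2-/- replicate 4, below 2287 to 2346 in the other Mbd2-/- libraries. All 3 differences are small beside the level of the gene, and none makes the genotypes overlap.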

How the results depend on the processing

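The log2 fold changes of the 10 genes were recomputed under 19 alternatives, which gave 188 values because Lipg and Spink10 average under 50 counts and left the stricter filter, and all kept their sign and moved by less than 1 SD between replicates. Lipg had the widest range, from -1.82 to -1.26. Not all of the 10 genes were called with the length trend removed, nor without Mbd2-/- replicate 1 or wild-type replicate 2 or 4. The number of called genes in the whole table was 3185 as reported, 2112 in the fit with the length trend removed and 2068 to 5155 in the fits with 1 library left out (5155 without Mbd2-/- replicate 4, 2099 and 2108 without Mbd2-/- replicates 1 and 2, and 2098 and 2068 without wild-type replicates 1 and 3). The number called within 15 Mb of Mbd2 without the 10 genes was 17 to 38 with 1 library left out, with 17 without wild-type replicate 3 or 4, and 21 to 26 under the other alternatives. The number of called relatives was 11 to 26 with 1 library left out, the lowest without wild-type replicate 3. The log2 fold change of Mbd2 was -0.56 to -0.35 with 1 library left out, and it was -0.40, -0.39 and -0.39 where it was no longer called (without Mbd2-/- replicates 1 and 2 and wild-type replicate 3). With the replicate number as a replicate block, 3192 genes, 22 genes within 15 Mb and 17 relatives were called. Libraries of the same number did not deviate together (correlations of -0.10, -0.06, 0.07 and 0.04), so the numbers pair no samples. Of 436 values of 23 other named genes, 388 kept their side of the threshold, 48 lost the call and 0 changed sign. The cause of these losses was not tested. Depth limits Lipg and Spink10 most, with 5 to 48 and 11 to 65 reads per library.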
